A study of Mus musculus with 10 samples.

Results

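The 4 miR-181 guide strands, miR-181a-5p, miR-181b-5p, miR-181c-5p and miR-181d-5p, were examined in small extracellular vesicles (membrane particles released by cells) prepared from mouse heart. They were taken by name as the rows for a 5p arm of miR-181, and they were 4 of the 733 mature miRNAs counted. The family was selected on this experiment's own results, with the read counts of the same 10 libraries and their comparison already known. Differences between diets in these members are therefore given as a description, without a test.

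Vesicle RNA came from 5 libraries of male C57BL/6J mice on HFD plus L-NAME and 5 libraries of chow diet mice of the same strain and sex. HFD plus L-NAME joins a high-fat diet (60% fat) with L-NAME, a blocker of nitric oxide synthase, at 0.5 g/L of drinking water. The regimen began at 8 weeks of age and lasted 12 weeks, and it serves as a model of heart failure in which the ejection fraction is preserved. Whole hearts were minced and digested with collagenase before filtration and ultracentrifugation, so the vesicles could come from any cell type of the heart, and fewer cells of a type cannot be told apart from less RNA per cell. The labels name no batch and do not say that each library is a separate mouse, so the spread given here is the spread between libraries.

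Each library held 250807 to 338530 miRNA counts in HFD plus L-NAME and 238434 to 420828 in chow diet. Levels are given as TMM CPM, that is counts scaled to the library's miRNA counts (CPM) after trimmed-mean normalization across libraries. Before that normalization, 3 counts corresponded to 7.13 to 12.6 CPM. The heart muscle miRNA miR-1a-3p made up 27.4% to 43.7% of miRNA counts in HFD plus L-NAME and 21.1% to 29.8% in chow diet. That difference touches every share and CPM value below, and its part in them is shown where the scaling was changed. No pair of libraries agreed within sampling noise.

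A miRNA silences messenger RNAs by pairing its seed, bases 2 to 8 from the 5′ end, with sites mostly in their 3′ UTRs, so miRNAs with 1 seed share most of their predicted targets. miR-181c is known from rat heart, where the nuclear-encoded miRNA enters mitochondria of cardiac myocytes and acts on the mitochondrial messenger of cytochrome c oxidase subunit 1. In endothelium, miR-181b targets importin-α3 and so lowers nuclear entry of NF-κB, and in mouse T cells miR-181a lowers phosphatases and raises the sensitivity of the T-cell receptor.

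The mature sequences of the 4 members, from RefSeq on GRCm38.p6, show what the family shares and where it differs, with the seed in capitals.
miR-181a-5p: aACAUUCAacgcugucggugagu
miR-181b-5p: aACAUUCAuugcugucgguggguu
miR-181c-5p: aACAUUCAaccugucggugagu
miR-181d-5p: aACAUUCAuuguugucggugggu
All 4 carried the same seed, and 0 of the other names among 1679 mature miRNAs in the reference table carried it. Counting from 1 at the 5′ end of miR-181a-5p, miR-181b-5p differed by A9U, C10U and A21G and was longer at its 3′ end (24 against 23 bases). miR-181d-5p differed from miR-181a-5p by A9U, C10U, C12U and A21G, and from miR-181b-5p by C12U alone over the bases both have. miR-181c-5p lacked 1 base of miR-181a-5p, the G at position 11, and matched its other 22 bases. How reads matching more than 1 member were assigned is not given in the sources used here.

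The members lie in 3 pairs on 3 chromosomes (GRCm38, GENCODE M21). Mir181a-1 (chr1:137966455-137966541) and Mir181b-1 (chr1:137966639-137966718) were 98 bp apart on the plus strand, within an exon of the long noncoding RNA A430106G13Rik and an intron of Gm4258. Mir181a-2 (chr2:38852735-38852810) and Mir181b-2 (chr2:38853830-38853918) were 1020 bp apart on the plus strand and lay opposite an intron of Nr6a1, a nuclear receptor gene. Mir181d (chr8:84178716-84178787) and Mir181c (chr8:84178873-84178961) were 86 bp apart on the minus strand, in an intron of Nanos3. Both copies of miR-181a give the same 5p arm, as do both copies of miR-181b, so 4 mature 5p arms came from 6 precursors.

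miR-181a-5p was the main member in every library. By mean CPM over the 10 libraries, mmu-miR-181a-5p ranked 24 of 733, miR-181c-5p 38, miR-181b-5p 98 and miR-181d-5p 107. Their levels averaged 8918 ± 2624 CPM for miR-181a-5p and 2349 ± 362 CPM for miR-181c-5p (SD, n = 10). miR-181b-5p averaged 219 ± 77.0 CPM and miR-181d-5p 180 ± 41.2 CPM (SD, n = 10). The family thus had an abundant member, a less abundant one and a scarce pair.

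Ratios of 2 members' counts within a library do not depend on its depth and do not use the treatment groups. They were compared, with 0.5 added to each count, by an exact two-sided sign-flip permutation test over the 10 libraries. The counts were known when the family was selected. The p-values therefore tell only whether an order recurred from library to library, and are no independent support for it. Within a library miR-181a-5p exceeded miR-181c-5p by 1.87 ± 0.35 on the log2 scale (SD, n = 10), a mean ratio of 3.66. It exceeded miR-181b-5p by 5.36 ± 0.69 and miR-181d-5p by 5.58 ± 0.56. miR-181c-5p in turn exceeded miR-181b-5p by 3.49 ± 0.60 and miR-181d-5p by 3.71 ± 0.35. Each of these 5 ratios was above 0 in 10 of 10 libraries (exact permutation p = 0.00195, the smallest that 10 libraries can give, adjusted over 6 pairs 0.00234). miR-181b-5p and miR-181d-5p were not separated, at 0.22 ± 0.50 on the log2 scale and above 0 in 6 of 10 libraries (exact permutation p = 0.189, adjusted 0.189). Ligation of adaptors favours some miRNA ends over others, so an order of counts between members need not be the order of molecules.

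**Figure D1:**
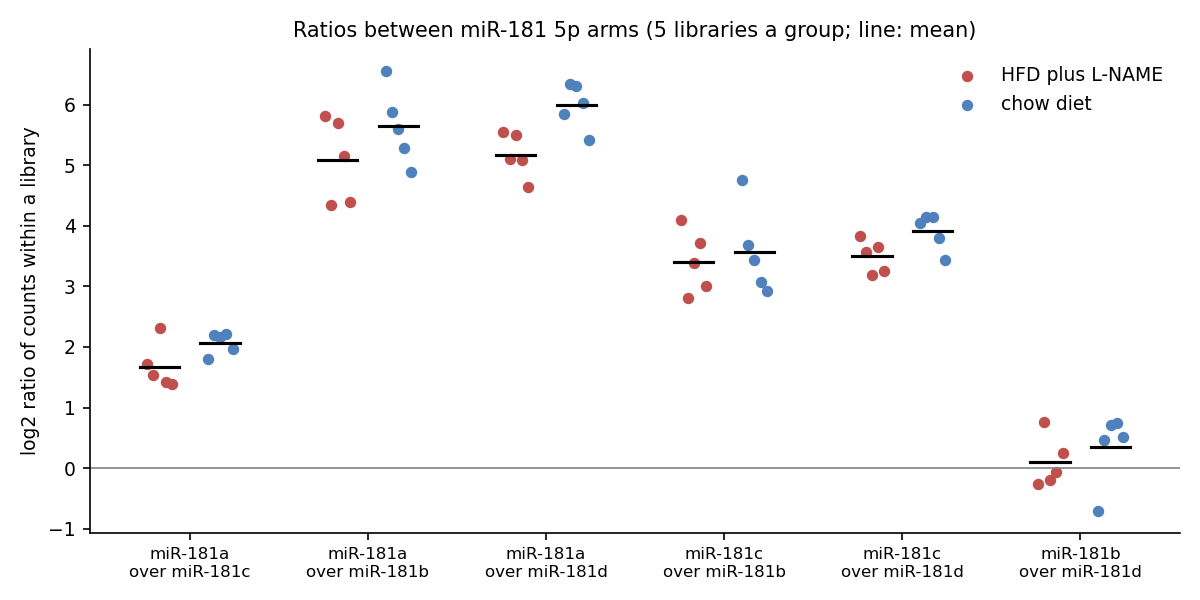
Log2 ratio of 2 members' counts within each library (y axis) for the 6 pairs of members (x axis), with each point a library, HFD plus L-NAME in red, chow diet in blue and a line at the group mean. All points of the 5 pairs to the left lie above 0, and those of miR-181b over miR-181d lie on both sides of it.

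The 2 copies of miR-181a differ in their 3p arms. These mature sequences are printed because they are the only miR-181a arms in the table whose sequence differs between the copies on chromosomes 1 and 2, with bases 2 to 8 in capitals.
miR-181a-1-3p: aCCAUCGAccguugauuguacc
miR-181a-2-3p: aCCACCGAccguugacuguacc
miR-181a-1-3p, from chromosome 1, had 103 counts over all libraries, 36 in HFD plus L-NAME and 67 in chow diet. miR-181a-2-3p, from chromosome 2, had 22 counts, 5 in HFD plus L-NAME and 17 in chow diet. The chromosome 1 arm had more counts than the chromosome 2 arm in 10 of 10 libraries. It held 87.8% of the counts of both in HFD plus L-NAME (exact 95% interval 73.8% to 95.9%) and 79.8% in chow diet (69.6% to 87.7%). These intervals cover counting error only and overlap. They describe the 3p arms and do not divide the 28723 counts of miR-181a-5p.

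Counts of the 5p arms far exceeded those of their 3p arms. miR-181a-5p exceeded the sum of its 3p arms by 7.80 ± 0.71 on the log2 scale within a library (SD, n = 10), a mean ratio of 223. This held in 10 of 10 libraries. The order was already plain from the totals, 28723 counts against 103 and 22, so no p is given. For miR-181c-5p, with 7469 counts, the 3p arm had 8 counts in all, 1 in HFD plus L-NAME and 7 in chow diet. For miR-181d-5p, with 555 counts, the 3p arm had 4 counts, 3 in HFD plus L-NAME and 1 in chow diet. miR-181c-3p had a count in 5 of 10 libraries and miR-181d-3p in 2 of 10. In the others the within-library ratio is set by the 0.5 added to a count of 0, so the log2 ratios of 9.48 ± 1.05 for miR-181c and 6.34 ± 0.86 for miR-181d (SD, n = 10) are given without a test. None of the 4 listed 3p arms passed the filter on low counts, while all 4 members did.

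miR-181a-5p had 8898, 5794, 10699, 4678 and 5468 CPM in the 5 HFD plus L-NAME libraries, against 9736, 11857, 11150, 10130 and 10765 CPM in the 5 chow diet libraries. The chow diet libraries lay close together, and 4 of the 5 HFD plus L-NAME libraries lay below all of them. HFD plus L-NAME 3 lay among the chow diet libraries, so the groups overlapped, and HFD plus L-NAME 1 lay just below the lowest of them. The means were 7107 ± 2570 CPM in HFD plus L-NAME and 10728 ± 836 CPM in chow diet (SD, n = 5 each), with a log2 difference of -0.59 ± 0.22 (SE, edgeR), or 0.663 of the chow diet level. Leaving out 1 library at a time kept this difference between -0.81 and -0.43.

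miR-181c-5p, the mitochondrial member, had 2704, 2003, 2152, 1739 and 2098 CPM in HFD plus L-NAME, against 2790, 2594, 2493, 2181 and 2741 CPM in chow diet. Here too 4 of the 5 HFD plus L-NAME libraries lay below every chow diet library, and only HFD plus L-NAME 1 lay among them. The means of 2139 ± 353 CPM in HFD plus L-NAME and 2560 ± 242 CPM in chow diet (SD, n = 5 each) lay closer together than those of miR-181a-5p. The log2 difference was -0.26 ± 0.16 (SE), and without 1 library it lay between -0.43 and -0.15. The library that broke the pattern was another one for each member, HFD plus L-NAME 3 for miR-181a-5p and HFD plus L-NAME 1 for miR-181c-5p.

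miR-181b-5p had 157, 284, 204, 131 and 259 CPM in HFD plus L-NAME, against 103, 200, 228, 259 and 361 CPM in chow diet. The groups covered much the same range, with both the lowest and the highest library in chow diet. Its log2 difference was -0.15 ± 0.33 (SE) and changed sign when HFD plus L-NAME 4, chow diet 4 or chow diet 5 was left out, with a range of -0.34 to 0.06. It had 43 to 94 counts per library, and its SE was the largest of the 4.

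miR-181d-5p had 188, 166, 234, 137 and 218 CPM in HFD plus L-NAME, against 168, 145, 139, 155 and 251 CPM in chow diet. The groups overlapped, and chow diet 5 stood above its group. The log2 difference was 0.14 ± 0.26 (SE), the only positive one of the 4, on 39 to 72 counts per library. Without 1 library it lay between 0.04 and 0.31.

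**Figure D2:**
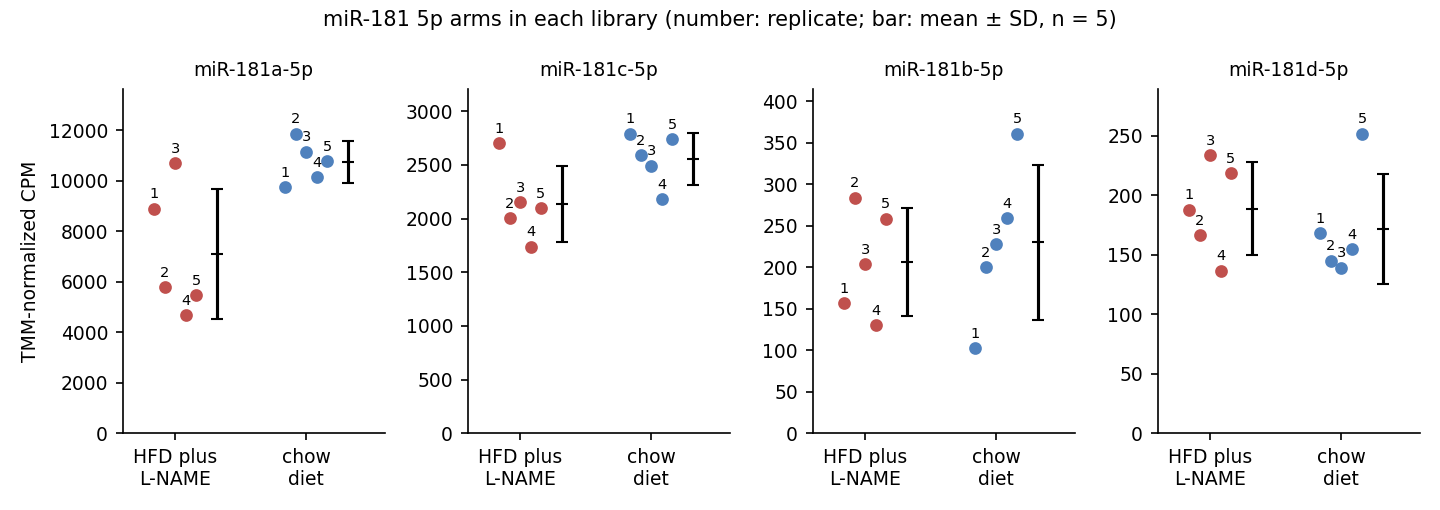
TMM-normalized CPM (y axis, each from 0 and on its own scale) of the 4 members in the libraries of HFD plus L-NAME (red) and chow diet (blue), with replicate numbers beside the points and the mean ± SD (n = 5) as a bar. For miR-181a-5p, 4 of 5 HFD plus L-NAME points lie below the chow diet points, which span 9736 to 11857 CPM; miR-181b-5p and miR-181d-5p overlap throughout.

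None of the members was called, and few miRNAs were. edgeR's quasi-likelihood test called 0 of 177 tested miRNAs at an adjusted p under 0.05 (0%), with 28 at an unadjusted p under 0.05, and 0 of the 4 members. limma-trend also called 0 of 177 (0%), with 26 at an unadjusted p under 0.05, and 0 of the 4 members. The DESeq2 Wald test called 3 of 177 (1.69%), namely miR-23a-3p, miR-499-5p and miR-125b-5p, with 29 at an unadjusted p under 0.05, and again 0 of the 4 members. The groups did not overlap in CPM for 7 of the 177 miRNAs (3.95%) and for 0 of the 4 members. Nothing is read from these member counts, because the family was picked with this comparison known.

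The family as a whole made up 1.30%, 0.716%, 1.42%, 0.650% and 0.793% of miRNA counts in the HFD plus L-NAME libraries, against 1.38%, 1.46%, 1.28%, 1.31% and 1.46% in the chow diet libraries. HFD plus L-NAME libraries 2, 4 and 5 lay well below the chow diet libraries, and libraries 1 and 3 lay within their range. The means were 0.976% ± 0.357 in HFD plus L-NAME and 1.38% ± 0.0814 in chow diet (SD, n = 5 each), a log2 ratio of -0.50. Counting error was small beside this spread, since HFD plus L-NAME 4 had an exact 95% interval of 0.624% to 0.678% and chow diet 3, the lowest of its group, one of 1.24% to 1.32%. On the scale of the authors' second value, if it is RPM, the family averaged 114 ± 35.6 RPM in HFD plus L-NAME and 209 ± 49.7 RPM in chow diet (SD, n = 5 each).

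**Figure D3:**
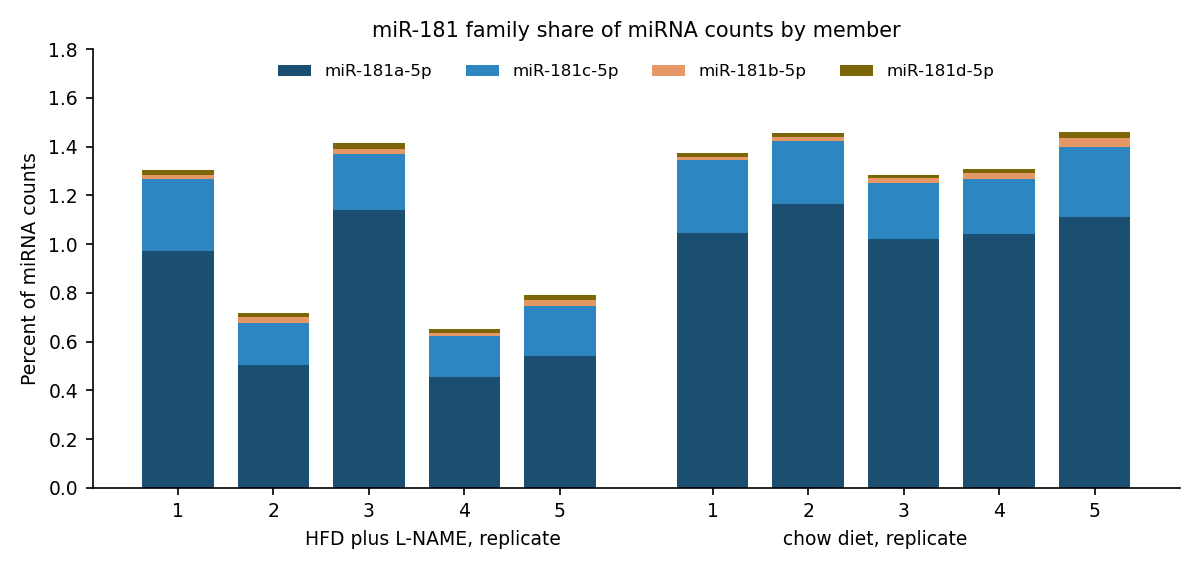
Percent of a library's miRNA counts (y axis) held by the 4 members, stacked by member, in each replicate of HFD plus L-NAME (left) and chow diet (right). The chow diet bars lie between 1.28% and 1.46%, and the HFD plus L-NAME bars between 0.650% and 1.42%, with most of the difference in the miR-181a-5p segment.

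The make-up of the family also differed in its means. miR-181a-5p held 72.6% ± 4.99 of family counts in HFD plus L-NAME and 78.3% ± 1.99 in chow diet (SD, n = 5 each), and HFD plus L-NAME 3, at 80.5%, was the highest of all 10 libraries. miR-181c-5p held 23.0% ± 4.08 in HFD plus L-NAME and 18.7% ± 1.92 in chow diet. The small members held 2.29% ± 0.977 (miR-181b-5p) and 2.02% ± 0.434 (miR-181d-5p) in HFD plus L-NAME, against 1.68% ± 0.666 and 1.26% ± 0.327 in chow diet. The within-library log2 ratio of miR-181a-5p to miR-181c-5p was 1.67 ± 0.38 in HFD plus L-NAME and 2.07 ± 0.18 in chow diet, and HFD plus L-NAME 3 (2.31) was above every chow diet library. The ratio of miR-181a-5p to miR-181d-5p was 5.18 ± 0.37 in HFD plus L-NAME and 5.99 ± 0.38 in chow diet, and its groups overlapped as well. The ratio of miR-181c-5p to miR-181d-5p, from precursors 86 bp apart on chromosome 8, was 3.50 ± 0.27 in HFD plus L-NAME and 3.92 ± 0.30 in chow diet. Here too the groups overlapped, and miR-181d-5p had only 39 to 72 counts per library.

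Spread between libraries differed between the groups for miR-181a-5p more than for the other members. The SD of its log2 CPM was 0.50 in HFD plus L-NAME and 0.11 in chow diet. Among the 48 miRNAs with a mean of at least 1000 CPM, the median SD was 0.31 in HFD plus L-NAME and 0.30 in chow diet. Within these 48, miR-181a-5p itself had the smallest chow diet SD, 11, itself included, had an HFD plus L-NAME SD at least as large, and 4, itself included, had a difference of SDs at least as large. miR-181c-5p had SDs of 0.23 in HFD plus L-NAME and 0.14 in chow diet. For the scarce members the order was the other way, with 0.46 and 0.65 for miR-181b-5p and 0.30 and 0.33 for miR-181d-5p in HFD plus L-NAME and chow diet.

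By Pearson r, the miRNAs whose log2 CPM went most nearly with miR-181a-5p over the 10 libraries were miR-499-5p, miR-181c-5p and miR-151-3p. This order depended on the measure. By Spearman rho, miR-27b-5p (0.89) and miR-1198-5p (0.83) came before all 3. About the group means, miR-301a-3p (0.73) and miR-135a-5p (0.72), among others, came before miR-499-5p and miR-181c-5p. These correlations describe points that share libraries and the 2 treatment groups, and are given without a test. miR-499-5p, whose host is Myh7b, a myosin gene that carries it in an intron, had a Pearson r of 0.80 (Spearman rho 0.78), and an r of 0.51 once each group's mean was taken off. Its own levels were 22864 CPM in HFD plus L-NAME and 34654 CPM in chow diet, a log2 difference of -0.60 ± 0.15 (SE). miR-181c-5p, of another chromosome than miR-181a-5p, had an r of 0.77 (rho 0.56), and 0.59 about the group means. miR-151-3p, from an intron of the focal adhesion kinase gene Ptk2, had an r of 0.75 (rho 0.67), and 0.79 about the group means, on levels of 50.8 CPM in HFD plus L-NAME and 71.4 CPM in chow diet. miR-181b-5p, whose precursors lie beside those of miR-181a-5p, came only in place 66 of the tested miRNAs, with an r of 0.11 (rho 0.18). miR-181c-5p and miR-181d-5p, the pair on chromosome 8, had an r of 0.22 (rho 0.33), and the near-identical miR-181b-5p and miR-181d-5p had 0.41 (rho 0.35).

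Lists of other miRNAs known from the settings in which miR-181 works were set beside the family. Of 11 mitochondria-associated miRNAs, miR-181c-5p included, 10 were tested, with 5 higher and 5 lower values, 0 called by edgeR and a median log2 difference of -0.01. Over all 177 tested miRNAs, 86 were higher, 91 lower and the median was -0.02. The 2 most abundant mitochondria-associated miRNAs, miR-1a-3p and the metabolic regulator miR-378a-3p, had log2 differences of 0.48 ± 0.20 and 0.06 ± 0.16 (SE). Of 10 miRNAs that act on NF-κB signalling, 9 were tested, with 3 higher, 6 lower, 0 called by edgeR and a median of -0.32. Its 2 most abundant members were miR-126a-3p, the endothelial miRNA that limits adhesion molecules, at -0.32 ± 0.18, and miR-146a-5p, which limits signalling through TRAF6 and IRAK1, at 0.09 ± 0.24 (SE). The list also held miR-125b-5p, at -0.78 ± 0.22 (SE), 1 of the 3 miRNAs of 177 that the DESeq2 Wald test called. Another of its lower miRNAs, miR-92a-3p, was at -0.96 ± 0.31 (SE), while 3 of the 9 were higher.

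miR-181a is abundant in lymphocytes, so leukocyte miRNAs were set beside it. Of 6, 4 were tested, with 2 higher, 2 lower, 0 called by edgeR and a median log2 difference of -0.08, and none of the 6 was at 0 in all libraries. Their summed level was 3023 to 6102 CPM in HFD plus L-NAME and 3914 to 5139 CPM in chow diet. By library it was 3809, 6102, 5937, 3023 and 4595 CPM in HFD plus L-NAME, and 3914, 5023, 5139, 4883 and 4631 CPM in chow diet. Within HFD plus L-NAME, library 4 was the lowest in both this sum and miR-181a-5p, while library 2 was the highest in the sum and library 3 in miR-181a-5p. The most abundant of the list, miR-146a-5p, had a log2 difference of 0.09 ± 0.24 (SE). It made up most of the sum, with a mean of 3796 of 4693 CPM in HFD plus L-NAME and 3572 of 4718 CPM in chow diet. The lymphocyte miRNA miR-150-5p, the second most abundant, had 284 ± 83.9 CPM in HFD plus L-NAME and 573 ± 260 CPM in chow diet (SD, n = 5 each), a log2 difference of -1.01 ± 0.31 (SE). Of the other tested ones, miR-223-3p was at -0.24 ± 0.32 and miR-155-5p at 0.44 ± 0.27 (SE). The part of leukocyte vesicles in the miR-181a-5p values was not tested.

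The 4 cardiomyocyte miRNAs summed to 319672, 435847, 292126, 365719 and 472844 CPM in HFD plus L-NAME and to 246182, 343851, 358521, 257915 and 252198 CPM in chow diet. These sums were mostly miR-1a-3p, with a mean of 344010 of 377242 CPM in HFD plus L-NAME and 246032 of 291733 CPM in chow diet. In HFD plus L-NAME, libraries 1 and 3, which had the most miR-181a-5p of that group, had the smallest sums. In chow diet it was the other way, since libraries 2 and 3 had the most miR-181a-5p and the largest sums. Of these miRNAs 2 were higher and 2 lower, 0 were called by edgeR, the median log2 difference was 0.15, and the 2 most abundant, miR-1a-3p and miR-499-5p, differed in opposite directions (0.48 ± 0.20 and -0.60 ± 0.15, SE). Of the 3 miRNAs of 177 that the DESeq2 Wald test called, miR-499-5p was 1. The other cardiomyocyte miRNAs, miR-133a-3p and miR-208a-3p, were at -0.19 ± 0.23 and 0.63 ± 0.24 (SE). The 4 endothelial miRNAs summed to 40542 to 73627 CPM in HFD plus L-NAME and 61617 to 84837 CPM in chow diet, with 1 higher, 3 lower and a median of -0.19. The second most abundant of them, miR-126a-5p, was at 0.40 ± 0.23 (SE) while its sister arm miR-126a-3p was at -0.32. The 3 smooth muscle miRNAs summed to 29553 to 40814 CPM in HFD plus L-NAME and 42504 to 65386 CPM in chow diet. Of them 1 was higher and 2 lower, with a median of -0.23. The sums did not overlap, as held for 7 of the 177 tested miRNAs taken singly (3.95%). They were mostly 1 miRNA, miR-143-3p, with a mean of 33012 of 35719 CPM in HFD plus L-NAME and 48002 of 50416 CPM in chow diet. miR-143-3p had a log2 difference of -0.54 ± 0.17 (SE), and its cluster partner miR-145a-5p one of 0.18 ± 0.23 (SE).

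The 5 red blood cell miRNAs summed to 9288 to 26103 CPM in HFD plus L-NAME and 17789 to 53987 CPM in chow diet, with 1 higher, 4 lower and a median of -0.14. miR-451a, the main one, had a log2 difference of -0.97 ± 0.35 (SE), and miR-486b-5p one of -1.30 ± 0.49 (SE). Of the others, miR-486a-5p was at 0.51 ± 0.94, miR-144-3p at -0.14 ± 0.39 and miR-144-5p at -0.02 ± 0.60 (SE). The SD of log2 CPM for miR-486a-5p was 1.63 in HFD plus L-NAME and 1.73 in chow diet. For miR-486b-5p it was 1.43 and 0.56. How reads were divided between these 2 miRNAs is not given in the sources used here, so their opposite signs are not read as separate results. The 3 fibroblast miRNAs summed to 258 to 699 CPM in HFD plus L-NAME and 224 to 483 CPM in chow diet, with 2 higher, 1 lower and a median of 0.85. miR-199b-5p was at 0.85 ± 0.29, miR-199a-5p at -0.13 ± 0.41 and miR-214-3p, the least abundant of the 3, at 1.09 ± 0.33 (SE). Of 3 neuronal miRNAs only miR-128-3p was tested, at -0.12 ± 0.28 (SE), and their sums were 260 to 443 CPM in HFD plus L-NAME and 203 to 539 CPM in chow diet. edgeR called 0 members of each of these lists, no list had a miRNA at 0 in all libraries, and the part of cell make-up in the miR-181 values was not tested.

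The direction of miR-181a-5p and miR-181c-5p held under every scaling and test run, and that of the scarce members did not. With read totals in place of miRNA counts as library size, the median of all tested miRNAs was -0.38 on the log2 scale and all 4 members were lower in HFD plus L-NAME, miR-181a-5p at -0.96 and miR-181d-5p at -0.21. With miR-1a-3p taken out before scaling, the median was 0.12 and 2 of 4 members were higher, with miR-181a-5p at -0.45, miR-181c-5p at -0.12, miR-181b-5p at 0.00 and miR-181d-5p at 0.28. Relative to the median of each setting, miR-181a-5p was at -0.57 as first scaled, -0.58 with read totals and -0.57 without miR-1a-3p. On the same footing miR-181c-5p was at -0.24 in each of these 3 settings, and miR-181d-5p at 0.16, 0.17 and 0.16. These changes of scaling move all miRNAs nearly together, so near-equal values relative to the median follow from them. They are no separate support for the differences.

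**Figure D4:**
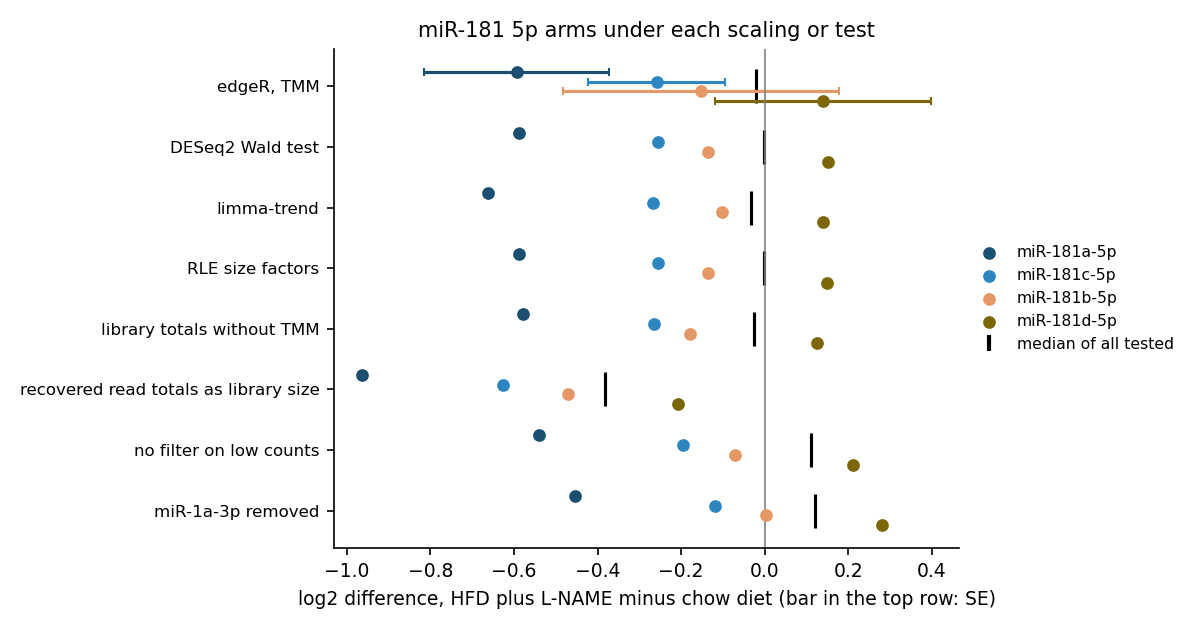
Log2 difference of each member, HFD plus L-NAME minus chow diet (x axis), under 8 scalings or tests (y axis), with the median of all tested miRNAs as a black tick and the SE as a bar in the top row. The 4 members keep their order from miR-181a-5p to miR-181d-5p in every setting and shift together with the black tick, most of all with read totals as library size.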

How the data were processed

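Small RNA libraries of heart vesicle RNA (MGIEasy kit, per the labels' protocols) were grouped by their treatment label, 5 for HFD plus L-NAME and 5 for chow diet. The authors deposited 1 table with a whole-number read count and a second value for each of 733 miRNAs, 603 of them with mouse miRNA names. The second value was taken as RPM, since the deposited count divided by it gave 1 constant per library. The totals so recovered were 21563706 to 27493797, of which miRNA counts were 0.980% to 1.85%, and what reads they cover is not stated. The build named in the submitters' processing notes was GRCm38.p6. For the aligner, the counting tool and the handling of shared reads, nothing is given in the sources used here.

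The whole table was fitted with edgeR 4.0.16 (TMM, default expression filter, robust quasi-likelihood test, R 4.3.3), and p-values were adjusted by Benjamini-Hochberg over the 177 miRNAs that passed, with a threshold of 0.05. The SE of a log2 difference was its size over the square root of F. Log2 CPM used a prior count of 2. limma 3.58.1 and DESeq2 1.42.0 were alternatives, beside other scalings, no filter and leaving out each library. The fit was tested on simulated data. Ratios within a library had 0.5 added to each count. Those between members were compared by exact sign-flip permutation tests (SciPy 1.17.1), which with 5 libraries alone cannot go below 0.0625. Exact 95% intervals cover counting error only. Other values and plots were made with NumPy 2.4.6, matplotlib 3.10.9 and pandas 2.3.3 under Python 3.11.15. Sequences came from RefSeq and precursor positions from GENCODE M21, and all 4 members had a sequence. Pairs of libraries had a chi-square per degree of freedom of 20.2 to 130 within a group and 27.7 to 214 across groups.

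The miRNAs named were the members, the 3p arms of miR-181, the 3 miRNAs with the highest r to miR-181a-5p and the 2 most abundant tested ones of each of 9 lists (49 entries). The other tested miRNAs of the leukocyte, cardiomyocyte, fibroblast and red blood cell lists were named as well. From the NF-κB list, miR-125b-5p and miR-92a-3p were also named, after their values were seen. The members and lists were chosen with earlier results of these data known.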

Additional observations from a re-analysis of the deposited data

Results flagged for a closer look

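Of 28 groups of 5 libraries checked, 5 had 1 library far from the other 4 (gap over range above 0.71), and chance alone marks about 1 group in 20. miR-181d-5p was highest in chow diet 5, at 251 CPM. The log2 ratio of miR-181b-5p to miR-181d-5p was lowest in chow diet 1, at -0.70. In HFD plus L-NAME 3, the log2 ratio of miR-181a-5p to its 3p arms was the highest of its group, at 9.50, with 4 counts of miR-181a-1-3p and 0 of miR-181a-2-3p there. In the same library the ratio of miR-181d-5p to its 3p arm was the lowest, at 4.35, with all 3 counts of miR-181d-3p in that group. The ratio of miR-181c-5p to its 3p arm was highest in chow diet 2, at 11.07, where the 3p arm had no count.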

How the results depend on the processing

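With recovered read totals as library size, the log2 differences moved by more than 1 SD between libraries, to -0.96 for miR-181a-5p, -0.63 for miR-181c-5p and -0.21 for miR-181d-5p, and the log2 ratio of the family share to -0.87 from -0.50. The other 65 of 68 alternative values of the members' differences and 11 of 12 of the family share stayed within that spread, as did all 117 of the within-library ratios. Without 1 library the family ratio lay between -0.67 and -0.38, and without miR-1a-3p it was -0.32. The number of miRNAs called, 0 by edgeR, was 3 with DESeq2 and 1 without a filter (miR-200c-3p), and 0 to 1 without 1 library. The single calls were miR-148a-3p without chow diet 1 and a predicted miRNA without chow diet 2, all named after their values were seen. At an unadjusted p under 0.05, edgeR had 13 higher and 15 lower, against 1 and 37 with read totals and 18 and 9 without miR-1a-3p. With 1 added in place of 0.5, the ratio to the 3p arm was 8.82 for miR-181c-5p and 5.49 for miR-181d-5p. Counts of 39 to 94 per library limit miR-181b-5p and miR-181d-5p. No paired analysis was possible because the replicate numbers only follow the order of accession and pair no libraries.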
